A study of Mus musculus with 96 samples.

Results

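The lipid droplet coat and lipase genes are 10 genes taken by name, Pnpla2, Pnpla3, Plin2, Plin4, Plin5, Cidea, Cideb, Cidec, Fitm2 and G0s2. All 10 were found among the 24066 genes that stood on a single entry in each of the 8 expression tables of the series. Polyadenylated liver RNA was sequenced in 96 libraries, 12 for each of 8 arms, with 3 libraries at each of 4 times of day. Pregnant C57BL/6J mice lived in a cycle of 12 h light followed by 12 h dark (control mothers) or, only while pregnant, in a cycle moved forward by 8 h every 5 days (shifted mothers). The mothers' own livers gave 2 arms and their fetuses' livers gave 2 more. The last 4 arms were livers of their male offspring, which from the age of 4 weeks had free access to low-fat or high-fat food for 12 weeks. These arms are called control low-fat, shifted low-fat, control high-fat and shifted high-fat offspring below, where control and shifted always refer to the mother. Livers were sampled at zeitgeber time (ZT) 0, 6, 12 and 18 h, where ZT0 is by convention the time of lights on. The labels do not say on which day of gestation fetuses were taken, their sex, or the age of the mothers. Nor do they say whether each of the 3 replicates came from its own animal, or which fetuses and offspring shared a mother. So p-values measure the spread between these libraries, which may be technical. The schedule was given to mothers, and libraries of littermates would not be independent in comparisons of it.

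A lipid droplet is a core of triglyceride and sterol ester inside a single layer of phospholipid, and the proteins on that surface govern how fat enters and leaves it. In hepatocytes droplets bud from the endoplasmic reticulum, are coated by perilipins that limit the access of lipases, fuse or exchange lipid with the help of CIDE proteins, and are broken down by adipose triglyceride lipase, the product of Pnpla2. Liver triglyceride rises in fasting, when fatty acids arrive from adipose tissue, and in obesity, and several of these genes are known targets of the fatty acid receptors PPAR-alpha and PPAR-gamma.

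Values were FPKM, fragments scaled to transcript length and to all mapped fragments of the library, so levels of different genes can be set side by side per length. Libraries were rescaled within mothers, within fetuses and within offspring, and no level is on a scale common to these 3 stages. Each of the 8 arms has a separate table, and an effect of the arm cannot be told apart from one of the table. The tables hold no counts and the depth behind each value is unknown. All 6 hepatocyte markers checked (Alb, Ttr, Apoa1, Cps1, Cyp2e1 and Serpina1a) had a mean of at least 1 FPKM in every arm, with summed levels of 24553 to 163871 FPKM per library. Some libraries stood apart. Control high-fat replicate 1 at ZT0 listed 15512 genes at 0, against at most 8992 in any other offspring library, and 845 of the 7296 genes at 1 FPKM or more in every other offspring library were at 0 in it. That library listed Pnpla3, Plin4, Cidea and Cidec at 0. It was among 5 offspring libraries whose median correlation with their own arm was below 0.95. The others were control low-fat replicate 2 at ZT0, shifted low-fat replicate 1 at ZT0, shifted low-fat replicate 1 at ZT6 and control high-fat replicate 2 at ZT12. In addition, replicates 2 and 3 of control low-fat at ZT6 and replicates 1 and 2 of shifted low-fat at ZT12 were closer to each other than any other pair, with a median absolute log2 ratio of 0.0453 and 0.0577 over 2079 genes against 0.113 for the next pair. Without counts it could not be tested whether these pairs differed by more than sampling noise, and results are given below without the 5 libraries, or with each close pair averaged, where that changes a call.

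The promoters of Plin2, Fitm2 and Cidec are shown because transcripts of these genes were higher in shifted than in control high-fat offspring. The window of Plin4, which was also higher there, is not shown. A further window of Cidec, chr6:113434755-113435014, is not shown either. Both held no match to the motifs named below. Sequences are RefSeq's windows on GRCm38.p6, cut to 250 bases before and 10 bases after the annotated start, 5′ to 3′ on the gene's strand. Capitals in Plin2 mark a match to AGGTCA on the opposite strand, the site to which nuclear receptors such as the PPARs bind as repeats, at position -218 from the start, and a CACGTG E-box, the site bound by clock factors and other factors of that class, at position -4. The windows of Fitm2 and Cidec, chr2:163472620-163472879 and chr6:113435751-113436010, held no match to any motif searched, and the window of Plin2 lies at chr4:86670050-86670309, all on the minus strand.
Plin2: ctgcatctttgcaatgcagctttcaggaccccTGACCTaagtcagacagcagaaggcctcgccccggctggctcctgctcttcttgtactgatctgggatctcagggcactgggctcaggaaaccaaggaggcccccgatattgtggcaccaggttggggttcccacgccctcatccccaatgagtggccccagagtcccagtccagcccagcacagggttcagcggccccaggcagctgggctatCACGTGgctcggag
Fitm2: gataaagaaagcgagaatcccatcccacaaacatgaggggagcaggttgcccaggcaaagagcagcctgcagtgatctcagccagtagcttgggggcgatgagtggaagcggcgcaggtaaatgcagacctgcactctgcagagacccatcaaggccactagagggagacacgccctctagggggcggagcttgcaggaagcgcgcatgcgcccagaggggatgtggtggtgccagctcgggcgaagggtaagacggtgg
Cidec: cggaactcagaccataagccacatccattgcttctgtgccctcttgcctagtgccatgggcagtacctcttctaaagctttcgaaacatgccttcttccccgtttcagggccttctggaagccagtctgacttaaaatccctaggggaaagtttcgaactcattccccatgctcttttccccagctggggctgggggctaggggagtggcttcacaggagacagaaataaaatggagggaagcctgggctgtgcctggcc
Windows were found for 9 of the 10 genes, 11 windows in all. AGGTCA was read on both strands and stood in 2 of these 11 windows, those of Plin2 and Plin5, and in 14.5% of all 32851 windows of the same length. A direct repeat of AGGTCA with 1 base between the copies, the usual PPAR element, was in 0 of 11 windows and in 0.0335% of all windows. CACGTG was in 1 of 11 windows and 6.34% of all. TTATGTAA, the D-box of clock-controlled factors, and TCACNCCAC, a sterol regulatory element, were in 0 of 11, against 0.843% and 1.10% of all windows. AGGTCA is part of its own direct repeat, and no other motifs overlap. A match is a description of these letters and not a measured binding site.

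In offspring liver the 10 genes covered a wide range of levels. Plin2, the main droplet coat of hepatocytes (chromosome 4, 86648386 to 86670060 on the minus strand, GENCODE M21 on mm10), and Cideb, the CIDE gene that hepatocytes express at all times (chromosome 14, 55754050 to 55758458, minus strand), were high, with arm means of 164 to 279 FPKM for Plin2 and 188 to 209 FPKM for Cideb. G0s2, the protein inhibitor of adipose triglyceride lipase (chromosome 1, 193272161 to 193273217, minus strand), had arm means of 91.8 to 172 FPKM and was above Plin2 in control high-fat offspring. Plin5, the coat of fat-oxidising tissues that ties droplets to mitochondria (chromosome 17, 56111601 to 56117596, minus strand), lay at 19.7 to 22.1 FPKM. Pnpla2, the lipase itself (chromosome 7, 141455198 to 141460743, plus strand), lay at 13.8 to 16.4 FPKM. Fitm2, an endoplasmic reticulum protein needed for droplets to bud (chromosome 2, 163466379 to 163472629, minus strand), lay at 3.76 to 12.6 FPKM. Pnpla3, a droplet protein that is switched on by feeding and insulin (chromosome 15, 84167837 to 84187236, plus strand), ranged over the offspring arms from 0.404 to 8.24 FPKM. The remaining genes, known mostly from fat tissue, were low. Cidec (chromosome 6, 113424634 to 113435760, minus strand) had arm means of 1.88 to 9.43 FPKM, Plin4 (chromosome 17, 56100591 to 56109803, minus strand) of 0.824 to 3.43 FPKM and Cidea of 0.0526 to 4.08 FPKM. All 10 are protein-coding genes. The span of Plin4 overlaps Hdgfl2, that of Cideb overlaps Nop9, that of G0s2 overlaps Lamb3, that of Cidea overlaps B430212C06Rik and that of Fitm2 overlaps 2310001K24Rik, each on the opposite strand. Pnpla3 overlaps Mir6392 and Gm49513 on its own strand and the pseudogene Gm20369 on the opposite strand. The libraries were stranded, but how the authors used strand in counting is not given in the sources used here, so reads of these partners may be mixed and the values of these 6 genes carry that uncertainty.

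In mothers and fetuses Plin2, Cideb and G0s2 were again high on the scale of each stage, and Cidea and Cidec were near 0. Plin2 was at 166 ± 59.6 (SD, n = 12) FPKM in control mothers and 87.8 ± 15.2 in control fetuses, and Cideb at 112 ± 10.2 and 80.0 ± 16.1. Cidea reached no more than 0.460 FPKM in any library of mothers and fetuses, and Cidec no more than 0.599 FPKM, so neither passed the filter of 1 FPKM in 3 libraries there and neither was tested. In offspring all 10 passed, but Cidea only through the shifted high-fat arm, with 6 of 12 libraries at 1 FPKM or more there, 1 of 12 in control high-fat and 0 in either low-fat arm. A gene kept for being high in 1 arm had to differ, so Cidea is given by its values, with no test, and counts of called genes in offspring levels are over the other 9. Cidec reached 1 FPKM in 6 of 12 control low-fat, 5 of 12 shifted low-fat, 3 of 12 control high-fat and 11 of 12 shifted high-fat libraries. For Plin4 the same counts were 4, 3, 5 and 10 of 12. For Pnpla3 they were 9, 10, 2 and 2 of 12.

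**Figure D1:**
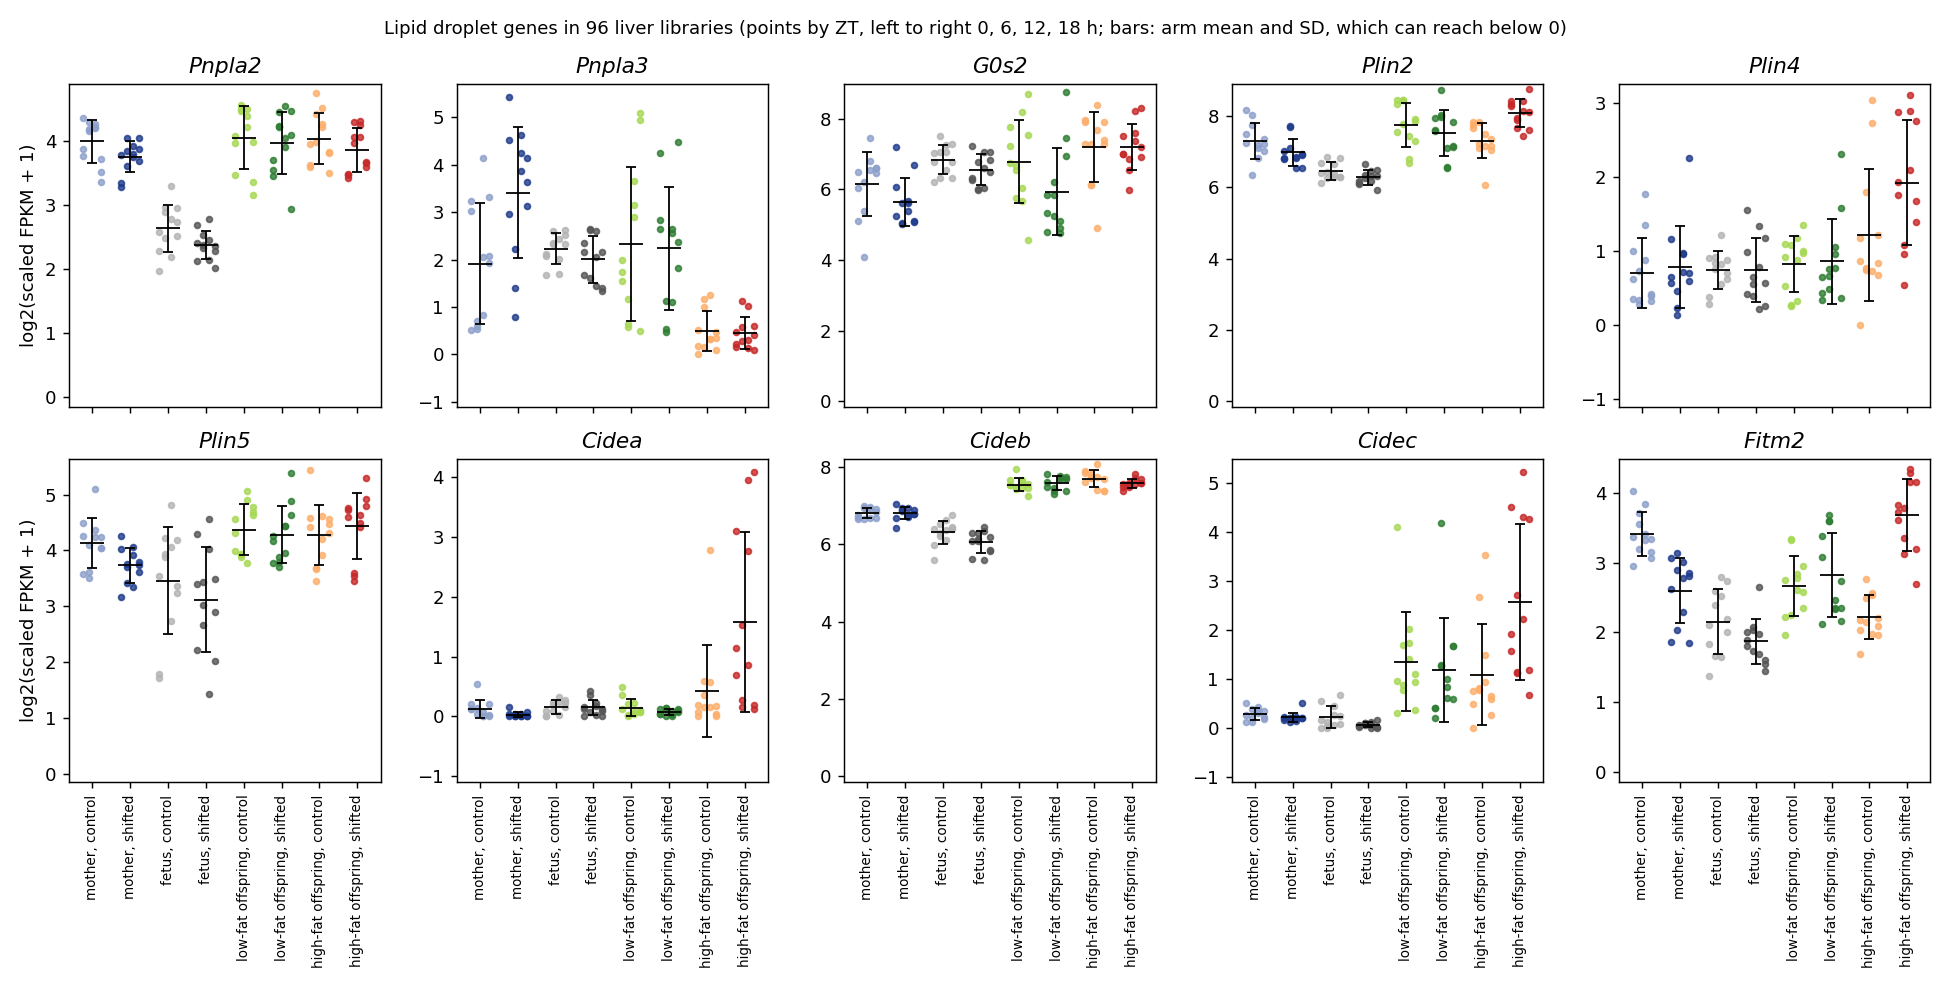
Levels of the 10 genes in 96 libraries as log2(scaled FPKM + 1), with 1 panel a gene, 1 column an arm, points ordered by ZT from left to right and bars for the arm mean and SD over 12 libraries. Fitm2 and Plin2 sit highest in the shifted high-fat arm, Cidea is near 0 outside the high-fat arms, and Pnpla3 is near 0 in both high-fat arms.

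The mothers' schedule was first compared between the 2 high-fat arms. In high-fat offspring of shifted mothers, transcripts of the budding gene Fitm2, the coats Plin2 and Plin4 and the droplet fusion gene Cidec rose, while the lipase Pnpla2, its inhibitor G0s2, Pnpla3, Plin5 and Cideb did not pass the test. That is 4 of 9 genes higher and 0 lower (limma, Benjamini-Hochberg adjusted p under 0.05). In this comparison 48.1% of all 10883 genes tested were called, 28.3% as higher and 19.8% as lower, so changes were common among all genes. Of all calls 58.9% were higher, and 84.6% with FPKM as deposited. The median log2 difference was 0.16 over the 9 genes and 0.03 over all genes tested, and the latter was 0.21 with FPKM as deposited. All 4 calls held with FPKM as deposited and when each of the 48 offspring libraries was left out in turn. Adipocytes, which also express these genes, are considered with Cidea and Cidec below.

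Fitm2 separated the high-fat arms most clearly. Its level was 2.22, 3.48 and 5.81 FPKM (lowest, median and highest of 12) in control high-fat and 5.48, 12.5 and 19.3 FPKM in shifted high-fat offspring. The shifted libraries were above the control libraries at all 4 times with no overlap, and 11 of 12 were above every control library of any time. The 3 libraries at ZT12 were at 19.3, 18.5 and 16.9 FPKM in the shifted arm and at 4.78, 2.93 and 4.93 FPKM in the control arm. The difference was 1.47 ± 0.15 (SE) on the log2(FPKM + 1) scale, 2.77-fold in FPKM + 1, with an adjusted p of 5.05e-09. Plin2 was at 66.1, 155 and 228 FPKM in control high-fat and at 173, 277 and 433 FPKM in shifted high-fat offspring. Of the 12 shifted libraries 9 were above every control library, and all 12 were above the control mean at their own time. Plin2 rose by 0.78 ± 0.16 (SE) on the same scale, 1.72-fold, with an adjusted p of 0.000102. Both calls remained without the 5 libraries that stand apart, at 1.44 for Fitm2 and 0.66 for Plin2.

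Plin4, which coats young and small droplets, was at 0, 0.807 and 7.28 FPKM in control high-fat and 0.461, 2.62 and 7.65 FPKM in shifted high-fat offspring. The ranges overlapped almost fully, and 8 of 12 shifted libraries were above the control mean at their time. The log2 difference was 0.71 ± 0.22 (SE), 1.63-fold in FPKM + 1, adjusted p = 0.00847. Cidea was at 0, 0.118 and 5.91 FPKM against 0.0909, 1.02 and 16.0 FPKM, a log2 difference of 1.15, given without a test. Cidec was at 0, 0.700 and 10.6 FPKM against 0.592, 3.21 and 36.3 FPKM, and rose by 1.49 ± 0.44 with an adjusted p of 0.00545. For both CIDE genes 9 of 12 shifted libraries were above the control mean at their time. At these low levels the size depends on the amount added before the logarithm, and with 0.1 in place of 1 it was 1.21 for Plin4, 2.26 for Cidea and 2.25 for Cidec. Without the 5 libraries that stand apart the calls of Plin4 and Cidec remained, at 0.69 and 1.36, and the difference of Cidea was 1.06.

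Levels of Cidea and Cidec were uneven between libraries of the same arm and time. Among shifted high-fat libraries Cidec stood at 21.6 FPKM in replicate 2 at ZT0, 18.8 in replicate 1 at ZT12, 36.3 in replicate 2 at ZT12 and 18.2 in replicate 3 at ZT18. The next highest of the 12 was 5.56 FPKM. The same 4 libraries were the 4 highest for Cidea, at 7.61, 5.82, 14.5 and 16.0 FPKM, and the 4 highest for Plin4, at 6.38, 6.43, 7.65 and 5.80 FPKM. Each of the other 3 offspring arms held 1 library of 12 with Cidec at 10 FPKM or more. In control high-fat offspring it was replicate 3 at ZT12, with Cidec at 10.6, Cidea at 5.91 and Plin4 at 7.28 FPKM. In the low-fat arms it was replicate 2 at ZT0 of the control arm, with Cidec at 16.1 but Cidea at 0.413 FPKM, and replicate 1 at ZT6 of the shifted arm, with Cidec at 17.2 but Cidea at 0.0990 FPKM. Both of these low-fat libraries are among the 5 that stand apart. So Cidec was high with Cidea in high-fat libraries and without it in the 2 low-fat libraries. Over the 12 shifted high-fat libraries, which share arm and diet, the Pearson correlation of log2 levels of Cidea and Cidec was 0.97, and over all 48 offspring libraries it was 0.81, as a description without a test.

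**Figure D2:**
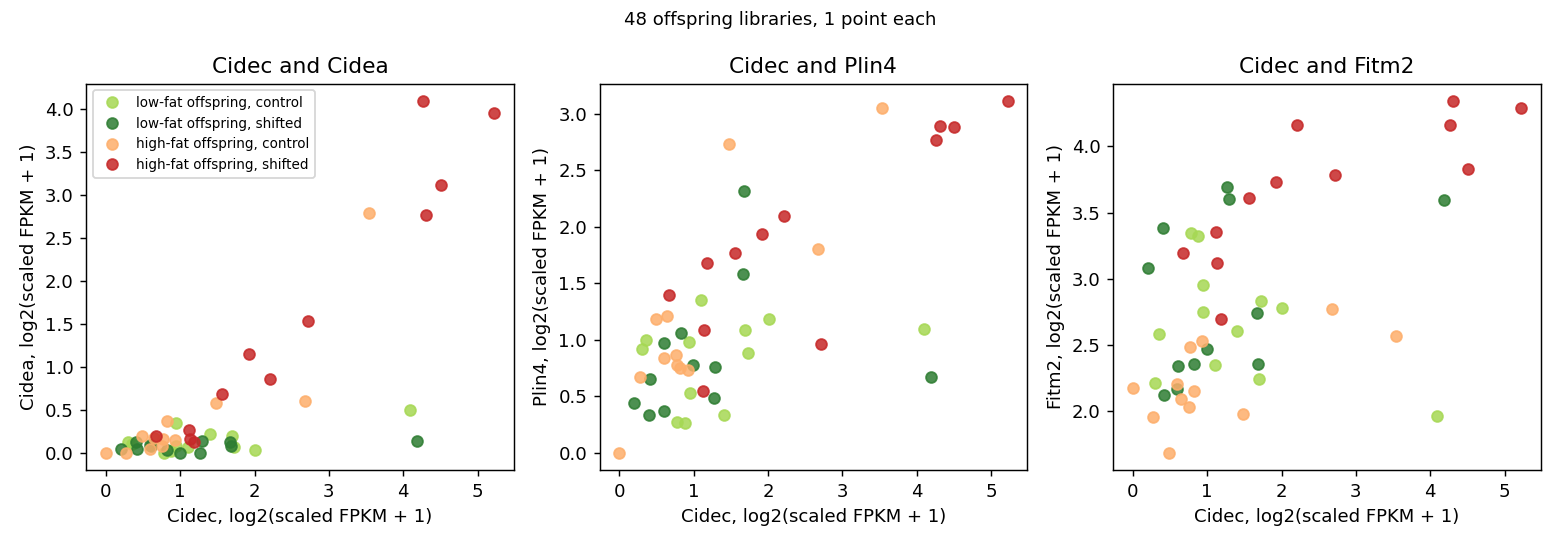
Cidec in 48 offspring libraries against Cidea, Plin4 and Fitm2, each as log2(scaled FPKM + 1), 1 point a library coloured by arm. Within the shifted high-fat arm the 4 libraries with the highest Cidec are also the 4 highest for Cidea and Plin4, and the 2 low-fat libraries with high Cidec have Cidea near 0.

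Cidea, Cidec and Plin4 are also genes of adipocytes, so adipocyte markers were read in the same libraries. Of 8 markers 3 passed the filter in offspring (Cfd, Fabp4 and Lipe), and 1 was called between the high-fat arms, Cfd, the complement factor adipsin, which rose by 1.48 ± 0.41 (SE) on the log2 scale with an adjusted p of 0.00345. Cfd averaged 6.47 FPKM in control and 14.0 FPKM in shifted high-fat offspring. The summed level of the 8 markers ran from 13.9 to 63.4 FPKM in control high-fat libraries and from 14.2 to 56.3 FPKM in shifted high-fat libraries. Fabp4 averaged 18.4 FPKM in control and 16.7 FPKM in shifted high-fat offspring, and Lipe averaged 4.012 and 4.197 FPKM. Adipoq, Plin1, Retn and Lep were at or near 0 in these arms. In the same order, Adipoq was at no more than 0.0531 and 0.0380 FPKM and Plin1 at no more than 0.0313 and 0.0233 FPKM. Retn was at no more than 0.108 and 0.0811 FPKM and Lep at no more than 0 and 0.00628 FPKM. Adig reached 1.20 FPKM in a control and 0.239 FPKM in a shifted high-fat library. Markers of other cell types also differed between the high-fat arms. Hepatocyte markers gave 1 higher and 2 lower of 6, Kupffer cell and macrophage markers 1 and 1 of 6, stellate cell markers 3 and 2 of 6, endothelial markers 0 and 3 of 5, erythroid markers 1 and 0 of 2, and exocrine pancreas markers 0 and 2 of 2. The summed hepatocyte level was 46550.3 to 68828 FPKM in control and 35009 to 54577 FPKM in shifted high-fat libraries. The part of these cell types in the results was not tested, and in whole liver more transcript per cell and more cells of a type cannot be told apart.

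The other 5 genes did not pass the test between the high-fat arms. Pnpla2 was at 10.2, 14.6 and 26.0 FPKM in control and 9.68, 13.2 and 18.9 FPKM in shifted high-fat offspring, with all 12 shifted libraries below the control mean at their time. Its log2 difference was -0.18 with a 95% interval from -0.42 to 0.06 and an adjusted p of 0.205. G0s2 was at 29.2, 162 and 333 FPKM against 61.8, 137 and 313 FPKM, a difference of 0.02 with an interval from -0.70 to 0.73. That interval leaves room for a sizeable change of G0s2 in either direction. Plin5 differed by 0.16 (-0.09 to 0.40) and passed only with FPKM as deposited, at 0.38 with an adjusted p of 0.014, and with trends of GC content and length removed, at 0.36 with an adjusted p of 0.0279. Cideb was the steadiest gene of the set, at 165, 212 and 272 FPKM in control and 168, 190 and 226 FPKM in shifted high-fat offspring, a difference of -0.11 (-0.25 to 0.03). Log2 differences between the high-fat arms correlated over 10486 genes with GC content (Spearman -0.31) and transcript length (0.44). With both trends removed the 4 called genes remained called, at 1.34 for Fitm2, 0.90 for Plin2, 0.60 for Plin4 and 1.70 for Cidec.

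**Figure D3:**
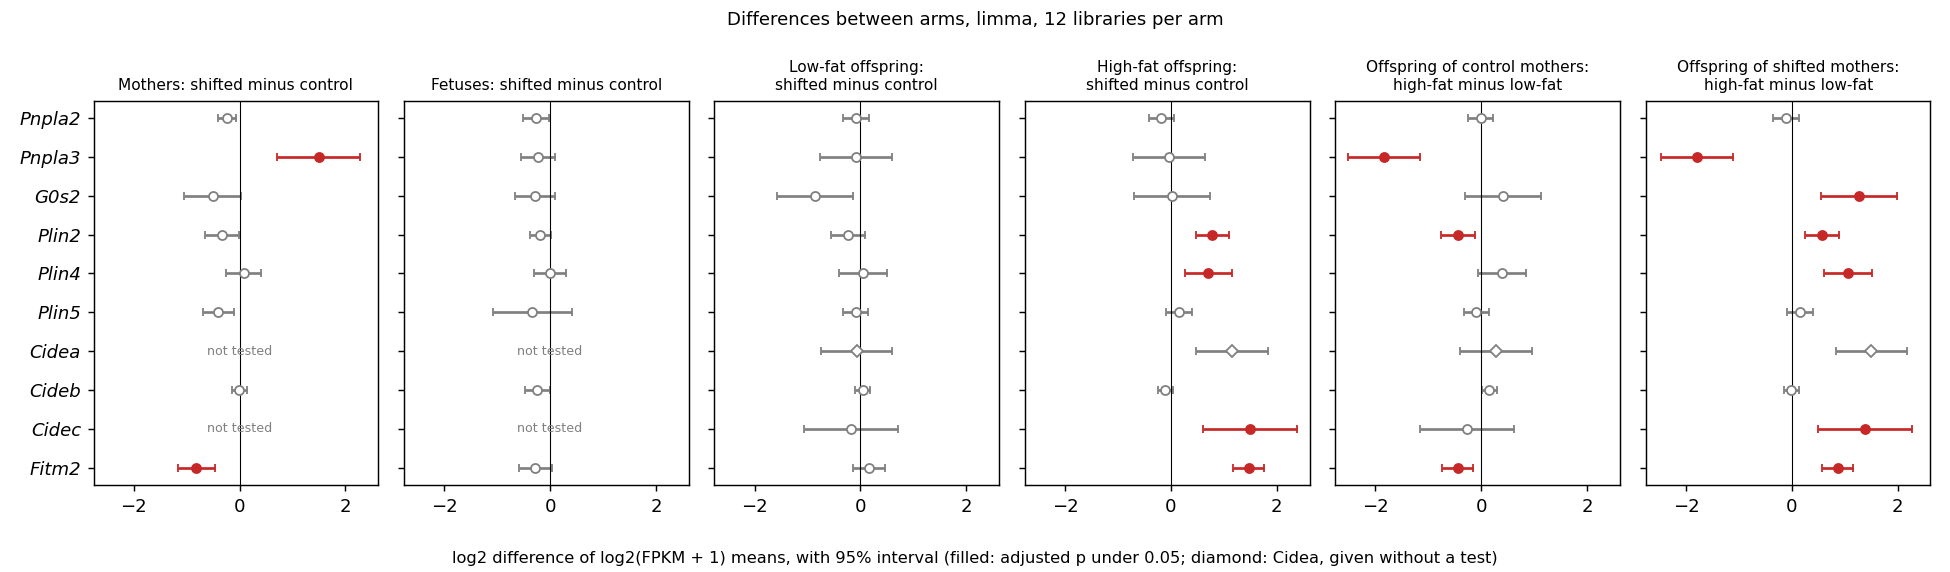
Log2 differences of the 10 genes with 95% intervals in 6 comparisons of levels, filled red where the adjusted p was under 0.05 with Cidea in offspring as an open diamond because no test is read for it, and marked as not tested where a gene was below the filter. The shifted against control high-fat panel has 4 filled points, all above 0, and the low-fat and fetus panels have none.

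In offspring of control mothers the high-fat diet lowered Pnpla3, Plin2 and Fitm2 and raised none of the 9 genes, where 14.6% of all genes tested were called, 6.59% as higher and 7.99% as lower. Of all calls in that comparison 45.2% were higher, and 14.6% with FPKM as deposited. In offspring of shifted mothers the diet raised Fitm2, Plin2, Plin4, Cidec and G0s2 and lowered Pnpla3, 5 higher and 1 lower of 9, where 23.8% of all genes were called, 13.3% as higher and 10.5% as lower. Of those calls 55.9% were higher, and 69.3% with FPKM as deposited. The median log2 difference between diets was -0.09 over the 9 genes with control mothers and 0.57 with shifted mothers, against -0.03 and 0.03 over all genes. The 2 diet comparisons use different libraries, but each shares an arm with the comparisons of the mothers' schedule.

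Pnpla3 fell on the high-fat diet under both schedules. In low-fat offspring it was at 0.413, 2.64 and 33.3 FPKM with control mothers and at 0.393, 4.54 and 21.4 FPKM with shifted mothers. In high-fat offspring it was at 0, 0.269 and 1.38 FPKM and at 0.0682, 0.284 and 1.19 FPKM. In each diet comparison 8 of 12 high-fat libraries lay below every low-fat library of the same schedule. The change of log2(FPKM + 1) was -1.84 ± 0.33 (SE) with control mothers, 3.57-fold lower in FPKM + 1, adjusted p = 0.000463. With shifted mothers it was -1.79 ± 0.33, 3.45-fold lower in FPKM + 1, adjusted p = 0.000202. At these low levels a fold of FPKM + 1 is smaller than that of FPKM itself. Arm means were 8.24 FPKM on low fat and 0.463 on high fat with control mothers, and 5.90 and 0.404 with shifted mothers. With 0.1 added before the logarithm the changes were -3.05 and -3.02. The difference between the 2 diet effects was 0.05 with an interval from -0.91 to 1.01, which leaves room for a sizeable difference in either direction.

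Plin2 and Fitm2 went opposite ways under the 2 schedules. With control mothers Plin2 was at 102, 224 and 349 FPKM on low fat against 66.1, 155 and 228 FPKM on high fat, and fell by 0.44 on the log2 scale with an adjusted p of 0.0494. That call ended without the 5 libraries that stand apart (adjusted p = 0.153), with the close pairs averaged (0.0976) and in 31 of the 48 fits that left out 1 library. It also ended with a pseudocount of 0.1 (0.0568), with no filter on low values (0.0841) and with only the 2 arms compared (0.0891). With shifted mothers Plin2 was at 92.8, 191 and 422 FPKM on low fat and at 173, 277 and 433 FPKM on high fat, a rise of 0.57 ± 0.16 (SE) with an adjusted p of 0.00773. Fitm2 was at 2.90, 5.41 and 9.17 FPKM in control low-fat offspring, and all 12 control high-fat libraries were below the low-fat mean at their time. It fell there by 0.44, adjusted p = 0.0363. That call ended with the close pairs averaged (0.0856), with no filter on low values (0.0621) and in 11 of 48 fits that left out 1 library. In shifted low-fat offspring Fitm2 was at 3.36, 5.11 and 11.9 FPKM, and 7 of 12 shifted high-fat libraries were above all of these. The rise was 0.86 ± 0.15 with an adjusted p of 5.06e-05.

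The difference between the diet effects under the 2 schedules, which is the interaction of schedule and diet, was tested directly. It was called for Fitm2, at 1.31 ± 0.20 (SE) with an adjusted p of 0.000166, for Plin2, at 1.01 ± 0.22 with an adjusted p of 0.00162, and for Cidec, at 1.66 ± 0.62 with an adjusted p of 0.0464. Over all genes tested 24.5% had a called interaction, 15.1% as higher and 9.4% as lower, and 3 of 9 genes here were higher and 0 lower. Of all these calls 61.7% were higher, and 87.6% with FPKM as deposited, where the median of all genes moved from 0.04 to 0.17. Interactions of Fitm2 and Plin2 stayed called when each library was left out in turn. That of Cidec was lost in 28 of 48 such fits, at adjusted p up to 0.0851, with the close pairs averaged, at 0.0679, and with no filter on low values, at 0.0870. With 0.1 added before the logarithm the interaction of Cidec was 2.60. Plin4 stood at 0.67 with an adjusted p of 0.117, and passed with FPKM as deposited, at 0.80 with an adjusted p of 0.0449. The difference of Cidea, given without a test, was 1.22.

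With shifted mothers Cidec and Plin4 were higher on high fat than on low fat. Cidea was at 0, 0.0570 and 0.0990 FPKM in shifted low-fat libraries, and 11 of 12 shifted high-fat libraries were above all of them, a log2 difference of 1.50 that is given without a test. Cidec rose by 1.39 ± 0.44 (SE), adjusted p = 0.0197, and this call was lost without shifted high-fat replicate 2 at ZT0 or without replicate 3 at ZT18, at adjusted p of 0.0502 to 0.0561. Plin4 was at 0.262, 0.640 and 3.99 FPKM in shifted low-fat offspring and rose on high fat by 1.06 ± 0.22, adjusted p = 0.000712. With 0.1 added before the logarithm the difference was 1.70 for Plin4 and 3.24 for Cidea. The adipocyte marker Cfd was higher on high fat by 3.10 on the log2 scale with shifted mothers. With control mothers Cfd was higher by 1.28, while neither Cidec nor Plin4 was called there. With shifted mothers the hepatocyte markers Alb, Apoa1 and Ttr were also lower on high fat, by 0.32, 0.47 and 0.54, and Rgs5 and Des of stellate cells and Alas2 of erythroid cells differed by 0.59, -0.27 and 0.46. With control mothers the endothelial markers Clec4g and Stab2 were higher on high fat, by 0.50 and 0.35, as were Ecm1 of stellate cells and Cela1 of exocrine pancreas, by 0.59 and 0.87, while Lrat of stellate cells was lower, at -0.36. The part of these cell types in the diet results was not tested.

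G0s2, the lipase inhibitor, was raised by diet with shifted mothers, at 1.27 ± 0.35 (SE) and an adjusted p of 0.00856. In shifted low-fat offspring G0s2 was at 26.0, 47.7 and 431 FPKM, and in shifted high-fat offspring at 61.8, 137 and 313 FPKM. The ranges overlapped, with 10 of 12 high-fat libraries above the low-fat mean at their time. With control mothers the change was 0.40 (-0.31 to 1.12), and the difference between the diet effects, 0.87, did not pass (adjusted p = 0.203). The lipase Pnpla2 changed little with diet, by -0.01 (-0.25 to 0.22) with control and -0.11 (-0.35 to 0.13) with shifted mothers, and neither passed.

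On the low-fat diet the mothers' schedule left no called change in the 9 genes with limma, where 0.00919% of all genes, 1 of 10883, were called. At an unadjusted p under 0.05 there was 1 of the 9, G0s2, where 7.45% of all genes were. G0s2 was at 22.7, 103 and 416 FPKM in control low-fat and at 26.0, 47.7 and 431 FPKM in shifted low-fat offspring, with 11 of 12 shifted libraries below the control mean at their time. Its log2 difference was -0.85 ± 0.35 (SE), adjusted p = 0.579. Fitm2 differed by 0.16 (-0.13 to 0.46) and Plin2 by -0.23 (-0.55 to 0.08). Set in order of arm means, Fitm2 ran from control high-fat (3.76 ± 1.05 FPKM, SD) through control low-fat (5.60 ± 1.99) and shifted low-fat (6.69 ± 3.33) to shifted high-fat (12.6 ± 4.52), and the first 3 arms in this order differed from their neighbours by less than an SD of an arm beside them. Plin2 ran from control high-fat (164 ± 47.5) through shifted low-fat (199 ± 91.5) and control low-fat (231 ± 91.1) to shifted high-fat (279 ± 74.8), and each step in this order was smaller than the SD of the arms beside it.

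In the mothers themselves Pnpla3 rose and Fitm2 fell on the shifted schedule, 2 of the 8 genes tested, where 8.39% of all genes tested were called, 3.46% as higher and 4.93% as lower. Of all calls 41.2% were higher, and 9.64% with FPKM as deposited. At an unadjusted p under 0.05 there were 5 of 8, where 28.1% of all genes were. Fitm2 was at 6.74, 9.23 and 15.3 FPKM in control and 2.61, 5.92 and 7.77 FPKM in shifted mothers, with 9 of 12 shifted libraries below every control library and no overlap at 3 of 4 times. The log2 difference was -0.81 ± 0.17 (SE), 1.76-fold lower in FPKM + 1, with an adjusted p of 0.00887. This is the reverse of the direction of Fitm2 in high-fat offspring. Pnpla3 was at 0.430, 3.01 and 16.5 FPKM in control and 0.719, 12.5 and 42.3 FPKM in shifted mothers. It was 1.50 ± 0.38 higher, 2.82-fold in FPKM + 1, with an adjusted p of 0.0210, and all 12 shifted libraries were above the control mean at their time. Pnpla2 (-0.24, adjusted p = 0.0602) and Plin5 (-0.40, adjusted p = 0.0732) missed the threshold and passed with FPKM as deposited, at -0.32 and -0.48, with adjusted p of 0.0161 and 0.037. Of 5 endothelial markers 4 were lower in shifted mothers, by 0.29 to 0.55 on the log2 scale, and no marker of the other 6 lists was called. The part of endothelial cells in the mothers' results was not tested.

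In fetuses 0 of the 8 genes tested passed with limma, where 3.66% of all 12009 genes tested were called, 2.02% as higher and 1.64% as lower, and at an unadjusted p under 0.05 there were 2 of 8, where 21.7% of all genes were. These were Pnpla2, at 5.40 ± 1.64 (SD, n = 12) FPKM in control and 4.24 ± 0.83 in shifted fetuses, and Cideb, at 80.0 ± 16.1 and 67.2 ± 12.7. Pnpla2 differed by -0.26 on the log2 scale (-0.50 to -0.02, adjusted p = 0.201) and Cideb by -0.24 (-0.48 to -0.01, adjusted p = 0.218). Plin5 ranged widely in fetuses, at 2.28 to 27.0 FPKM in controls and 1.68 to 22.5 FPKM in the shifted arm, and differed by -0.34 (-1.08 to 0.41). Fitm2 stood at 3.65 ± 1.46 and 2.75 ± 0.94 FPKM, a difference of -0.28 (-0.59 to 0.03) that did not pass.

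Time of day was tested within each offspring arm. In shifted low-fat offspring 5 of 9 genes tested passed the test of time (Pnpla3, G0s2, Plin2, Plin5 and Fitm2), where 24.7% of all genes did. In shifted high-fat offspring 3 of 9 passed (Pnpla2, Plin4 and Plin5), where 30.1% of all genes did. Those 9 include Cidea, for which no test is read, and leave out Pnpla3. In control low-fat offspring 2 of 9 passed (Pnpla2 and Plin2), where 15.5% did. The count stood well above the share of all genes in shifted low-fat offspring alone, and several of those calls ended under an alternative setting, as given for each gene below. In control high-fat offspring 0 of 8 passed with limma, where 0.725% of all genes did, with 2 of 8 at an unadjusted p under 0.05 against 13.2% of all genes. Daily profiles of the arms were compared directly in 6 tests. With limma 0 of the 9 genes other than Cidea passed in any of them (0 of 8 in mothers and in fetuses). Among all genes 1.69% passed between the mothers, 0% between the fetuses, 0.11% and 0% between the schedules on low and high fat, and 0.0276% and 0.119% between the diets with control and shifted mothers. So a gene called in some arms and not in others is not shown to differ between them. The smallest adjusted p was 0.0598 for Fitm2, shifted high-fat against shifted low-fat, which became 0.0415 without the 5 libraries that stand apart. At an unadjusted p under 0.05 that comparison had 6 of 10 genes, where 16.1% of all genes were. The shifted against control comparisons had 3 of 10 on low fat, where 16.4% were, and 1 of 10 on high fat, where 8.01% were. These unadjusted counts of 10 include Cidea, for which no test is read.

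Pnpla2 had its highest mean at ZT6 or ZT12 and its lowest at ZT18 or ZT0 in each offspring arm. In control low-fat offspring its 3 libraries were at 21.7, 21.2 and 22.5 FPKM at ZT6 and at 9.30, 14.8 and 7.88 FPKM at ZT18, with no overlap (adjusted p = 0.0245). In shifted high-fat offspring it was at 10.2, 10.1 and 9.68 FPKM at ZT0, 14.7, 15.7 and 18.7 at ZT6, 18.1, 18.9 and 15.6 at ZT12 and 11.1, 11.8 and 11.5 at ZT18 (adjusted p = 0.000721). The low-fat call was lost with the close pairs averaged, at 0.0644, and in 5 of 12 fits without 1 library. In control high-fat offspring the means were highest at ZT6, at 20.3 ± 5.63 (SD, n = 3) FPKM, and lowest at ZT18, at 12.2 ± 1.68, and did not pass (adjusted p = 0.218). Control mothers had Pnpla2 highest at ZT12, at 17.7 ± 0.40 FPKM, and lowest at ZT18, at 10.6 ± 1.45, with an adjusted p of 0.047 where 4.34% of all genes passed. That call in control mothers, the only one among 7 genes, was lost in 10 of 12 fits without 1 library. It was also lost with FPKM as deposited (adjusted p = 0.107), with no filter on low values (0.0767) and with a 24 h cosine (0.0822).

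Plin5 had its lowest mean at ZT6 in all 4 offspring arms. In shifted high-fat offspring it was at 10.6, 11.0 and 9.92 FPKM at ZT6 and at 26.8, 29.4 and 38.1 FPKM at ZT18, a separation with no overlap (adjusted p = 7.45e-05). In shifted low-fat offspring it was at 13.8, 12.1 and 12.8 FPKM at ZT6 and 41.0, 28.6 and 23.9 FPKM at ZT18 (adjusted p = 0.0125), a call lost with FPKM as deposited, at 0.0838. Control high-fat offspring had means of 11.2 ± 1.10 (SD, n = 3) FPKM at ZT6 and 28.5 ± 12.1 at ZT0, which did not pass (adjusted p = 0.174). The ZT0 mean there rests on the library with 15512 genes at 0, in which Plin5 was 42.3 FPKM against 20.2 and 22.9 FPKM in the other replicates.

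Plin2 and Fitm2 had their highest means at ZT6 in both low-fat arms. Plin2 in shifted low-fat offspring was at 422, 248 and 260 FPKM at ZT6 and at 92.8, 94.1 and 136 FPKM at ZT12 (adjusted p = 0.0114). In control low-fat offspring Plin2 had means of 305 ± 76.5 (SD, n = 3) FPKM at ZT6 and 128 ± 38.2 at ZT12, with an adjusted p of 0.0466. That call was lost in 10 of 12 fits without 1 library, without the libraries that stand apart (0.0613) and with no filter on low values (0.0889). Fitm2 in shifted low-fat offspring was at 11.1, 11.9 and 11.2 FPKM at ZT6 and at 4.11, 4.05 and 4.53 FPKM at ZT12 (adjusted p = 0.0173), a call lost without replicate 2 or without replicate 3 of ZT6, at up to 0.0622. On the high-fat diet with shifted mothers Fitm2 was instead highest at ZT12, at 18.2 ± 1.23 FPKM, and lowest at ZT6, at 9.90 ± 2.60, and did not pass (adjusted p = 0.0836). That test gave 0.00295 without replicate 3 at ZT18, the library with Cidea at 16.0 FPKM.

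G0s2 in shifted low-fat offspring stood at 431, 173 and 122 FPKM at ZT18 and at 33.6, 29.0 and 26.0 FPKM at ZT12, with no overlap between ZT18 and any other time (adjusted p = 0.00532). A 24 h cosine in place of separate times ended that call, at an adjusted p of 0.139. Pnpla3 in the same arm had means of 9.78 ± 7.14 (SD, n = 3) FPKM at ZT0 and 0.679 ± 0.448 at ZT6, and its adjusted p of 0.0427 became 0.113 without the libraries that stand apart and 0.0669 with replicate number as a block. With no filter on low values it was 0.106, and with a 24 h cosine 0.0523. In all 4 arms of mothers and low-fat offspring Pnpla3 had its lowest mean at ZT6. Control low-fat replicate 2 at ZT18 had Pnpla3 at 0.413 FPKM against 33.3 and 29.7 in its other replicates, and without it the test of time in that arm moved from an adjusted p of 0.129 to 0.000479. Plin4 in shifted high-fat offspring had means of 5.78 ± 2.26 FPKM at ZT12 and 0.844 ± 0.342 at ZT6, with an adjusted p of 0.0241, lost in 4 of 12 fits without 1 library. That call of Plin4 also ended with a 24 h cosine, at 0.243, and with no filter on low values, at 0.0576. Shifted mothers had 0 of 7 genes called with limma, where 0.645% of all genes were, and 2 of 7 at an unadjusted p under 0.05 against 8.67% of all genes. Control and shifted fetuses had 0 of 7 and 0 of 8 where 0% of all genes were called, and 2 and 0 at an unadjusted p under 0.05, where 4.49% and 5.07% of all genes were.

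**Figure D4:**
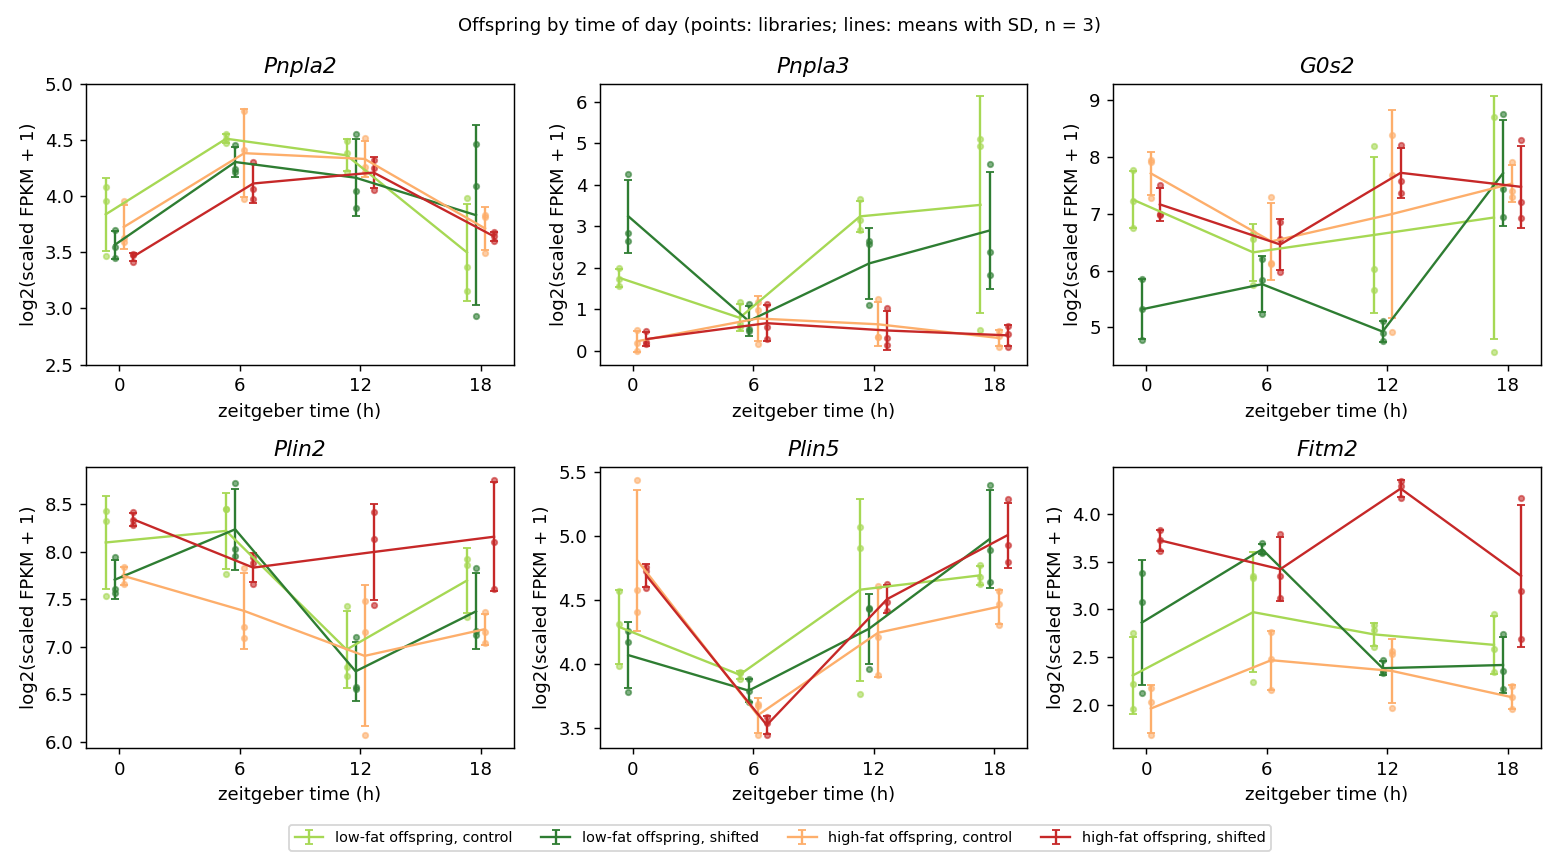
Levels of Pnpla2, Pnpla3, G0s2, Plin2, Plin5 and Fitm2 as log2(scaled FPKM + 1) in the 4 offspring arms against zeitgeber time in hours, with 3 libraries as points and a line through their means with SD bars. Pnpla2 is highest at ZT6 or ZT12 and Plin5 lowest at ZT6 in each arm, and Fitm2 of the shifted high-fat arm lies above that of the control high-fat arm at all 4 times.

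Other genes of the same pathways were read from lists chosen with earlier results known. Between the high-fat arms 48.1% of all genes tested were called, 28.3% as higher and 19.8% as lower. There, 5 of 20 other droplet and neutral lipid hydrolysis genes were higher and 2 lower. They include Lipa, the lysosomal acid lipase, which rose from 35.5 ± 6.68 (SD, n = 12) to 69.1 ± 15.1 FPKM (0.94 on the log2 scale, adjusted p = 4.07e-08), and Mgll, the monoglyceride lipase, which rose from 38.5 ± 10.9 to 55.0 ± 12.5 FPKM (0.53, adjusted p = 0.000318). Ces3b, a carboxylesterase, fell by 0.65 (adjusted p = 0.000448). Of 7 genes linked to PPAR-gamma and fatty liver 3 were higher and 0 lower, the fatty acid transporter Cd36 by 1.52, the acyltransferase Mogat1 by 0.79 and Pparg itself by 0.67. Of 13 PPAR-alpha fasting targets 6 were higher and 0 lower, with Cpt1a, the gatekeeper of mitochondrial fat oxidation, up by 0.69. Of 13 lipogenic genes 8 were higher and 2 lower, led by Gpam, which starts glycerolipid synthesis, from 5.65 ± 3.42 to 36.6 ± 13.1 FPKM (2.52, adjusted p = 2.11e-09). The list medians were 0.12, 0.67, 0.64 and 0.74 on the log2 scale against 0.03 over all genes tested.

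With control mothers, 6.59% of all genes tested were higher on high fat and 7.99% lower. The high-fat diet lowered 8 of the 20 other droplet genes there and raised 2. Among those lowered was Abhd5, the activator of the lipase Pnpla2, which went from 10.8 ± 3.40 to 7.41 ± 1.09 FPKM (SD, n = 12, log2 difference -0.44, adjusted p = 0.00155). The diet lowered 7 of 13 lipogenic genes and raised 0, and lowered 2 of 13 PPAR-alpha targets and 1 of 7 PPAR-gamma genes. With shifted mothers 13.3% of all genes tested were higher on high fat and 10.5% lower. The diet raised 3 and lowered 4 of the 20 droplet genes there, with Abhd5 again lower, by 0.38, and Fitm1, the relative of Fitm2, up from 23.6 ± 10.8 to 59.0 ± 22.2 FPKM (1.35, adjusted p = 0.000589). The diet raised 6 of 13 PPAR-alpha targets and lowered 0, raised 3 of 7 PPAR-gamma genes and lowered 1, and raised 1 and lowered 4 of 13 lipogenic genes. The interaction was higher in 4 and lower in 1 of 20, higher in 3 of 7, higher in 8 of 13 and higher in 1 of 13 genes of the 4 lists. Over all genes tested it was higher in 15.1% and lower in 9.4%. On the low-fat diet no gene of these lists was called between the schedules, where 0.00919% of all genes were. In shifted mothers 3.46% of all genes tested were higher and 4.93% lower. In mothers 1 of 20 droplet genes was higher, the droplet GTPase Rab18 (0.24, adjusted p = 0.0204), 1 of 6 PPAR-gamma genes was lower, Pparg (-0.38), 1 of 13 PPAR-alpha targets was lower, Cyp4a14 (-1.26), and of 13 lipogenic genes Thrsp was higher (1.35) and Acaca lower (-0.40). In fetuses 1 of 17 droplet genes was higher, again Rab18 (0.25, adjusted p = 0.0161), and none of the other lists. Over all genes tested there 2.02% were higher and 1.64% lower.

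The genes whose levels ran most like each of the 10 over the 48 offspring libraries were found by Pearson correlation of log2 levels, as a description of libraries that share arms, times and scaling. Pnpla3 was most like its relative Pnpla5 (0.92), followed by Ccdc69 (0.89). Cidea was most like Mogat1 (0.89), which was also the second for Plin4 (0.80) after Limk1 (0.83). Cidec was most like Osbpl3 (0.87), and Limk1 was the third most like for both Cidea (0.84) and Cidec (0.82). Fitm2 was most like Cmtm4 (0.90), Bcl2l13 (0.90) and Abhd15 (0.90), and Plin2 most like Igsf11 (0.89). Lower values were reached for Pnpla2 (Gpcpd1, 0.80), Plin5 (Lad1, 0.73), G0s2 (Epha2, 0.71) and Cideb (Psmc4, 0.69).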

How the data were processed

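Liver RNA of 96 libraries was read from 8 deposited tables, 1 an arm. The authors used TopHat2 2.1.1 and Cufflinks 2.2.1 with mm10, per the submitters' processing notes. That the deposited values are FPKM was inferred from these tools and the values, since the file headers name no unit. Annotation, filters and the counting of strands are not stated in the labels. Depth is unknown, so no counting interval can be given and the 3 libraries a group limit precision. Of 24883 entries, 817 with 280 shared symbols were left out. Scaling was by median-of-ratios factors, separately for mothers, fetuses and offspring. Genes with FPKM of at least 1 in 3 libraries were fitted as log2(FPKM + 1) with limma 3.58.1 (trend, moderated variances; R 4.3.3), 1 mean per arm and time. Level comparisons average 4 times, and time of day and daily profiles are F tests with 3 degrees of freedom. The threshold is a Benjamini-Hochberg adjusted p under 0.05 over all genes tested. Scripts were tested on simulated data. Members and lists were chosen with earlier results of these data known. Named genes are the 10, the 3 of smallest p among called genes of each list, and the 3 of highest correlation with each of the 10. The result of 1 gene that this rule names is not reported here. Promoters were read with Python 3.11.15, and figures drawn with matplotlib 3.10.9. Libraries were not paired by replicate number, except in the alternative with a replicate block.

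Alternatives were FPKM as deposited, a pseudocount of 0.1, no filter, replicate block, only the arms compared, GC and length trends removed, a 24 h cosine, each library left out, and, chosen after seeing the data, leaving out 5 libraries and averaging 2 close pairs.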

Additional observations from a re-analysis of the deposited data

Results flagged for a closer look

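The following differences between groups passed a direct test of the difference. The effect of the high-fat diet was larger (more positive) with shifted than with control mothers, by log2 differences between the 2 diet effects of 1.31 for Fitm2, 1.01 for Plin2 and 1.66 for Cidec (limma, adjusted p = 0.000166, 0.00162 and 0.0464). For Cidec that call was lost in 28 of 48 fits that left out 1 library.

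Among genes of the related lists the same difference was 2.11 for Gpam, 1.64 for Ehhadh, 1.60 for Vnn1, 0.76 for Lipa, 0.77 for Mgll, 0.50 for Rab18, 1.87 for Cd36, 1.09 for Mogat1 and 1.02 for Pparg, with adjusted p from 0.000165 for Gpam to 0.0101 for Pparg.

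The daily profile differed between shifted and control mothers for Ces1d (adjusted p = 0.0262) and between shifted and control low-fat offspring for Gpam (adjusted p = 0.0144). In that low-fat comparison 12 of 10883 genes were called. Without control low-fat replicate 3 at ZT18 it had 0 calls, so the call of Gpam was lost.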

How the results depend on the processing

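Leaving aside fits without 1 library, 1161 results of the 10 genes were read under other settings. Of these 1126 kept their side of the threshold, 26 lost and 9 gained a call, and 0 reversed. Most of the 1161 were not called as reported. Fits without 1 library changed further calls, in 31 of 48 such fits for Plin2 and diet with control mothers. Of 3252 level differences of the 10 genes over all alternatives, 90 had another sign, and 0 of these were called. The cause was not tested for the changes below. Depth is unknown and limits low genes most. Counts over the 10 genes include Cidea, which passed the filter only through shifted high-fat libraries. In mothers 8 of the 10 were tested for levels and 7 for time, as reported.

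With FPKM as deposited, 4 of the 8 genes tested in mothers were called, where 121 of 10405 genes were higher and 1134 lower. In the interaction Fitm2, Plin2, Plin4 and Cidec were called, where 2774 of 10931 genes were higher and 391 lower. For time in control mothers 0 were called. All genes gave 190 calls in fetuses (440 as reported). For daily profiles they gave 2 on low fat, 1 for diet with control mothers and 23 for diet with shifted mothers (12, 3 and 13 as reported). With a pseudocount of 0.1 the latter 2 were 1 and 8. With no filter on low values, 1 of the 10 was called for diet with control mothers, 0 for time in control mothers and 1 for time in control low-fat offspring. All genes then gave 4 calls for the schedule on low fat, 37 for its daily profile, 50 for the diet profile with shifted mothers and 16 for time in shifted mothers. With only the arms compared, the schedule on low fat gave 2 calls and diet with control mothers 905 (1587 as reported). With GC and length trends removed, fetuses gave 178 and the interaction 1714 (2669 as reported). With cosine terms, time gave 1 gene in shifted mothers, and 0 of the 10 in control mothers and 3 in shifted low-fat offspring.

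Within a stage, same-numbered libraries did not deviate together on average (mean correlation 0.0053 in offspring, -0.026 in mothers and 0.015 in fetuses). Single pairs ran from -0.49 to 0.54 in offspring, -0.58 to 0.68 in mothers and -0.73 to 0.79 in fetuses. A mean near 0 cannot exclude that some numbers pair libraries, and pairs of a mother with a fetus were not examined. A replicate block gave 22 diet profiles with shifted mothers and 248 genes for time in control mothers (437 as reported), with 0 of the 10 there. Without the block Pnpla2 was called in control mothers, and with it the adjusted p was 0.0908.

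Without the 5 libraries of low correlation, daily profiles gave 2 calls on high fat, 227 on low fat, 117 for diet with control and 110 for diet with shifted mothers. The schedule on low fat gave 3, and time in control high-fat offspring 401 (73 as reported). Of the 10, 1 diet profile with shifted mothers and 1 time test in control low-fat offspring were called. With the close pairs averaged, profiles gave 5 on low fat, 0 for diet with control and 2 for diet with shifted mothers, diet with control mothers gave 979, and time gave 500 in control and 1410 in shifted low-fat offspring (1566 and 2532 as reported). Of the 10, 1 was then called for diet with control mothers and 0 for time in control low-fat offspring.

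Leaving out each library in turn gave these ranges of called genes: daily profiles 0 to 3 on high fat, 0 to 419 on low fat, 101 to 243 in mothers, 0 to 898 for diet with control and 0 to 770 for diet with shifted mothers. Levels gave 213 to 870 in fetuses, 1 to 28 on low fat, 514 to 1199 in mothers and 1056 to 2599 for diet with control mothers. Time gave 0 to 1 in shifted fetuses, 201 to 696 in control and 2 to 86 in shifted mothers, 44 to 152 in control high-fat, 493 to 2204 in control low-fat, 1524 to 4758 in shifted high-fat and 1163 to 3055 in shifted low-fat offspring. Of the 10 genes, profiles gave 0 to 1 in mothers and for either diet comparison, levels 2 to 4 in mothers and 1 to 4 for diet with control mothers, and time 0 to 1 in control mothers, 0 to 1 in shifted mothers, 0 to 3 in control low-fat, 2 to 5 in shifted high-fat and 3 to 7 in shifted low-fat offspring.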
